A study of Mus musculus with 4 samples.

Results

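The cytochrome P450 genes outside family 1 were followed in liver RNA-seq libraries of Kunming mice. Members were the listed genes whose symbol is Cyp followed by a family number and a subfamily letter, with Cyp1a1, Cyp1a2 and Cyp1b1 left out. This rule gave 41 of 15500 listed genes, with 18 of family Cyp2, 1 of Cyp3, 9 of Cyp4 and 13 of other families. Cyp51, which has no subfamily letter in its symbol, does not meet the rule. The study compared a diet with conjugated linoleic acid (CLA) against a control diet, with and without GW6471, an antagonist of the nuclear receptor PPARα. Vehicle mice ate chow supplemented with 1.5% (w/w) linoleic acid, and CLA mice ate chow with 1.5% (w/w) CLA in its place. GW6471 mice ate the linoleic acid diet and were injected daily with 20 mg/kg of the antagonist, and CLA+GW6471 mice had the CLA diet together with these injections. According to the methods and the labels the mice were wild-type males bought at 5 weeks of age, with 6 per group, and livers were taken after 28 days, at zeitgeber time 8 for the dietary groups. Vehicle injections are mentioned for the controls only where appropriate, so whether the Vehicle and CLA libraries came from injected mice is not clear from these sources. Each condition had 1 library, and pooling of mice is not stated. No difference between conditions was therefore tested, and every comparison describes these libraries.

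P450 enzymes are heme proteins that insert oxygen into lipophilic molecules. In hepatocytes those of the Cyp2 and Cyp3 families oxidise drugs and other foreign compounds, those of Cyp4 hydroxylate fatty acids and eicosanoids, and a few specialised enzymes make bile acids, steroid hormones and active vitamins. Most sit in the endoplasmic reticulum and take electrons from the reductase Por, whereas mitochondrial ones such as Cyp27a1 and Cyp11a1 take them from adrenodoxin (Fdx1) and its reductase (Fdxr). Nuclear receptors, PPARα among them for Cyp4a genes, set the transcription of many P450 genes in liver.

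The feature that makes a P450 is the cysteine that holds the heme iron. The codons around it were located in the GENCODE vM1 coding transcripts of the 14 members with a mean over the libraries of at least 1 FPKM (fragments scaled to transcript length and library size). The search asked for a phenylalanine or tyrosine codon at position 1 of 10 codons, glycine codons at positions 4 and 10 and cysteine at position 8. It was met in 13 of the 14 members. Cyp20a1 had no such stretch. The 30 bases are shown 5′ to 3′ with the cysteine codon in capitals, because they are the part of each transcript that all these genes share by function.
Cyp2s1: tactccttaggtaagcgagtcTGCctggga
Cyp27a1: ttcggctatggggttcggtctTGCctgggt
Cyp3a13: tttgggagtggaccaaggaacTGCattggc
Cyp4f16: ttttctgccgggcccaggaacTGCatagga
Cyp4v3: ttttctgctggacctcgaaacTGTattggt
Cyp4f17: ttttctgctgggcctaggaacTGCatagga
Cyp4f13: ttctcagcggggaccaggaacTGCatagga
Cyp4b1: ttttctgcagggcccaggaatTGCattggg
Cyp7b1: tttggactcggaacaagcaaaTGTccaggg
Cyp39a1: tttggaggcgggaagttccagTGTcctgga
Cyp2c68: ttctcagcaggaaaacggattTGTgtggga
Cyp11a1: tttggctggggtgttcggcagTGTctgggc
Cyp2d22: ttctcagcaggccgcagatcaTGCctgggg
The cysteine codon was TGC in 8 members and TGT in 5, and no 2 members had the same 30 bases. In Cyp2s1 the stretch opened with a tyrosine codon, and in the other 12 with phenylalanine. An intron split the stretch in 8 members, which were Cyp2s1, Cyp2c68, Cyp2d22 and the 5 members of family Cyp4. In Cyp2s1 it fell across exons 8 and 9 of 9 and in Cyp4f16, Cyp4f17 and Cyp4f13 across exons 12 and 13 of 13. It lay within 1 exon in Cyp27a1, Cyp3a13, Cyp7b1, Cyp39a1 and Cyp11a1. Cyp4f16 and Cyp4f17 shared 28 of the 30 bases and 84.3% of their aligned coding bases, the highest identity of the 91 pairs. Over all pairs the median identity was about 50%.

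Most of the P450 genes listed were barely detected. Of the 41 members, 14 had a mean of at least 1 FPKM, 5 lay between 0.1 and 1, and 22 lay under 0.1. The share at 1 or above was 34.1% of the members, against 66.8% of all listed genes. Family Cyp2 had 3 of 18 members at this level, Cyp4 had 5 of 9 and the other families 5 of 13. The single Cyp3 member, Cyp3a13, was also above it. The annotation holds 94 protein-coding genes that meet the rule, and the other 53 were not analysed here. Among these are the liver genes Cyp3a11, Cyp2j5, Cyp4a12a, Cyp4a14, Cyp4f14 and Cyp8b1. Every value below is an FPKM as deposited unless a log2 ratio is named.

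**Figure D1:**
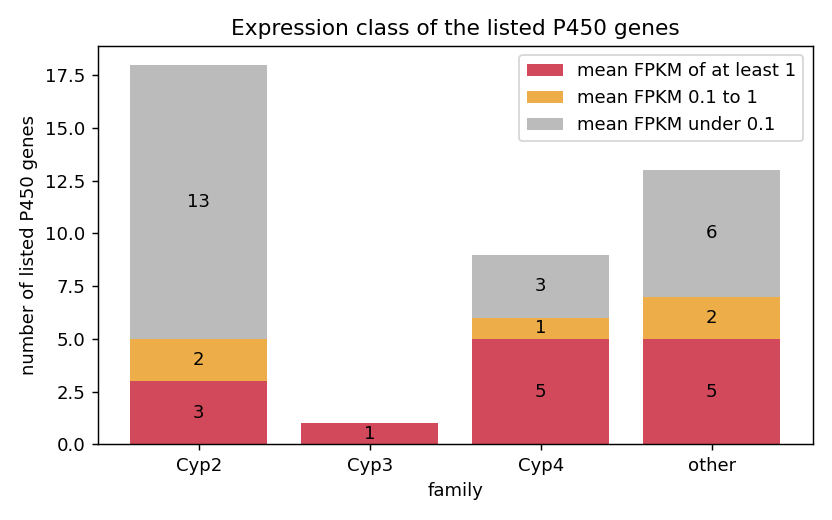
Number of listed P450 genes (vertical axis) in families Cyp2, Cyp3 and Cyp4 and in all other families (horizontal axis), stacked by the mean FPKM over the 4 libraries. The class under 0.1 FPKM holds 13 of the 18 Cyp2 genes, and the class of at least 1 FPKM holds 5 of the 9 Cyp4 genes.

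The 22 members under 0.1 reached 0.21 FPKM at most in any library, and 21 of them were listed at 0 in at least 1 library. The steps between low values of short genes put the depth at about 18800000 to 19270000 reads a library. At that depth 3 reads correspond to 0.0346 to 0.104 FPKM depending on the length of the member. About 3 reads is the upper 95% limit on the expected count where 0 reads are seen. In 17 of the 22 no library exceeded its 3-read value, so no difference was detectable for them at this depth. Several are named as typical of liver. Cyp2e1, the ethanol-oxidising P450, had 0.06 FPKM in Vehicle, 0.06 with CLA, 0.04 with GW6471 and 0.10 with both. Cyp7a1, the rate-limiting enzyme of classical bile acid synthesis, had 0.02, 0, 0.01 and 0.01 FPKM in the same order. Both were near the limit in every library. Cyp4a10, a classical PPARα target that hydroxylates fatty acids, had 0.02 FPKM in CLA and was listed at 0 in the other 3 libraries. Cyp2b10, the phenobarbital-inducible gene of CAR, had 0.05 FPKM in CLA+GW6471 alone and 0 elsewhere. Cyp2c29, at 0.03, 0.06, 0.06 and 0 FPKM, was no better detected. Cyp26a1, which clears retinoic acid, and Cyp2f2, known from airway club cells, were listed above 0 only in GW6471, at 0.03 and 0.11 FPKM.

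These low levels stand beside mixed levels of other liver genes. Of 14 hepatocyte markers, 13 were listed and 7 had a mean of at least 1 FPKM. Alb, Trf and Fgb were high, with means of 922, 277 and 76.3 FPKM, whereas Ttr, Fga and Cps1 did not exceed 0.11 FPKM in any library. The label of liver was thus only partly met by its defining markers. Of 8 keratin and epithelial genes, 5 reached 1 FPKM, with Krt18 at 1171 to 1359 and Krt8 at 403 to 491 FPKM. Krt19, Cdh1 and Krt14 did not, with means of 0.14, 0.1 and 0.04 FPKM. The listed markers of steroid-making cells (3 of 5), club cells (1 of 3) and kidney tubule (1 of 3) all lay under 1 FPKM. The intestine (4 listed genes), macrophage (2), fibroblast (5), adipocyte (2) and blood (2) lists each had 1 gene above it. These were Vil1 at 44.5, Cd68 at 27.1, Dcn at 1323, Fabp4 at 6.22 and Hba-a1 at 1.90 FPKM on average. All other listed genes of these lists had means under 1 FPKM, among them Col1a1 at 0.258, Lgals4 at 0.475 and Adipoq at 0.03 FPKM. The part of such cells in the P450 values was not tested. In bulk RNA, fewer cells of a type and less RNA per cell cannot be told apart.

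Among members with a mean of at least 1 FPKM, Cyp2s1 was the most abundant. Cyp2s1 is known from epithelia outside the liver, where it acts on retinoids and eicosanoids. Its gene lies on chromosome 7 of mm9, from 26587494 to 26601932 on the minus strand. It had 57.19 FPKM in Vehicle, 80.31 with CLA, 56.05 with GW6471 and 47.77 with both. The CLA library stood above the other 3, which lay between 47.77 and 57.19 FPKM. Cyp2s1 alone made up 32.1% to 39.8% of the summed FPKM of the 41 members. This sum was 165 FPKM in Vehicle, 202 with CLA, 167 with GW6471 and 149 with both, and without Cyp2s1 it was 108, 121, 111 and 101. A lincRNA gene, Gm17445, is annotated on the opposite strand of Cyp2s1, and whether reads were counted by strand is not stated.

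**Figure D2:**
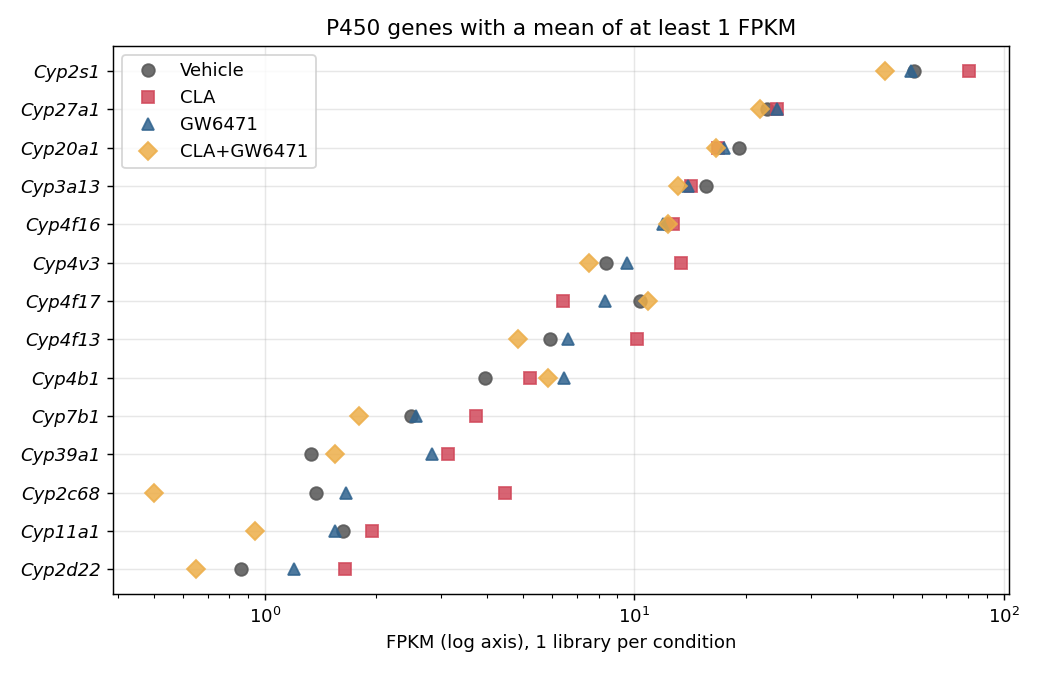
FPKM on a log axis (horizontal) of the 14 P450 genes with a mean of at least 1 FPKM (vertical, in order of the mean), with 1 point for each of the Vehicle, CLA, GW6471 and CLA+GW6471 libraries and no error, since each condition has 1 library. Points of Cyp2s1 lie between 47.77 and 80.31, those of Cyp4f16 nearly coincide, and those of Cyp2c68 spread from 0.50 to 4.46.

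Differences are given as the log2 ratio of FPKM + 0.1, and the added 0.1 makes ratios of low genes smaller. Each ratio has a 95% counting interval (exact Clopper-Pearson, on estimated reads). This interval holds counting error alone, not the difference between animals, and reads are not counted by molecule. In CLA against Vehicle, 8 of the 14 members were higher beyond this interval and 2 were lower, against 32.1% higher and 33.5% lower among all 9762 genes with a mean of at least 1 FPKM and a known length. Either way this was 10 of 14, close to the 65.7% of all genes. Read from the length of the shortest coding transcript, it was 8 of 14, without Cyp20a1 and Cyp4b1, against 51.7% of all genes. The 8 higher include Cyp2d22, whose mean is 0.903 FPKM without the CLA library, and among the 13 members that reach 1 FPKM without it 7 were higher, against 31.9% of genes chosen in that way. At least 2-fold higher were 2 members, Cyp39a1 and Cyp2c68, against 1.79% of 10355 genes, and none was 2-fold lower, against 0.744%. The call of Cyp39a1 was lost with a pseudocount of 1, none of the 9 members with a mean of at least 5 FPKM was 2-fold higher, and without a filter 6 of 41 were, against 2.59% of all listed genes. The median log2 ratio of the 14 members was 0.44, with 11 above 0, whereas the median of all genes was -0.0071, with 48.9% above 0. The median depended on the level of the members, and was 0.085 over the 9 with a mean of at least 5 FPKM.

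In GW6471 against Vehicle, 3 members were higher and 2 lower beyond the interval, beside 27.6% and 27.4% of all genes, or 5 of 14 against 55.0% either way. Cyp39a1 alone was 2-fold higher, in a background of 0.560% of genes, and none was 2-fold lower (0.309% of genes). With a pseudocount of 1 that call was lost too, and none of the 9 members with a mean of at least 5 FPKM was 2-fold higher, whereas 3 of 41 were without a filter, against 1.35% of all listed genes. The median was 0.065, against -0.0041 for all genes, and -0.029 over the 9 members with a mean of at least 5 FPKM.

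In CLA+GW6471 against CLA, 9 members were lower and 1 was higher beyond the interval, beside 33.8% and 35.0% of all genes, and 10 of 14 against 68.8% either way. This comparison shares the CLA library with CLA against Vehicle, so a high value in that library enters both. At least 2-fold lower were 4 members, Cyp4f13, Cyp7b1, Cyp2d22 and Cyp2c68, against 2.67% of genes, and none was 2-fold higher (1.27%). Cyp2d22 has a mean of at least 1 FPKM only through its CLA library, the high side of this comparison, with a mean of 0.903 over the other 3. Cyp2d22 is also among the 9 members lower beyond the interval. Among the 13 members and 10301 genes that reach 1 FPKM without the CLA library, 3 members and 2.42% of genes were 2-fold lower. Of the 4, Cyp7b1 lay at the limit and was not 2-fold lower with libraries scaled to the same FPKM sum (2.61% of genes), whereas a pseudocount of 0.01 brought in Cyp39a1 and Cyp11a1 (2.93% of genes). With a pseudocount of 1 the count was 1, Cyp2c68, and over the 9 members with a mean of at least 5 FPKM it was 1, Cyp4f13. Without a filter it was 6 of 41, against 3.55% of all listed genes. The median was -0.78, against 0.0090 for all genes, and -0.12 over the 9 members with a mean of at least 5 FPKM.

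In CLA+GW6471 against GW6471, 9 members were lower beyond the interval and 1 higher, beside 30.3% and 29.0% of all genes, and 10 of 14 against 59.3% either way. With the shortest transcript Cyp4f13 lay within the interval, which left 9, against 44.9% of all genes. The CLA+GW6471 library is shared with the comparison before. Cyp2c68 was the member at least 2-fold lower (0.802% of genes), a call lost with a pseudocount of 1, and none was 2-fold higher (0.357%). Without a filter 3 of 41 were lower, against 1.51% of all listed genes. Over the 14 members the median log2 ratio was -0.28, against 0.0041 for all genes, and -0.13 over the 9 with a mean of at least 5 FPKM.

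**Figure D3:**
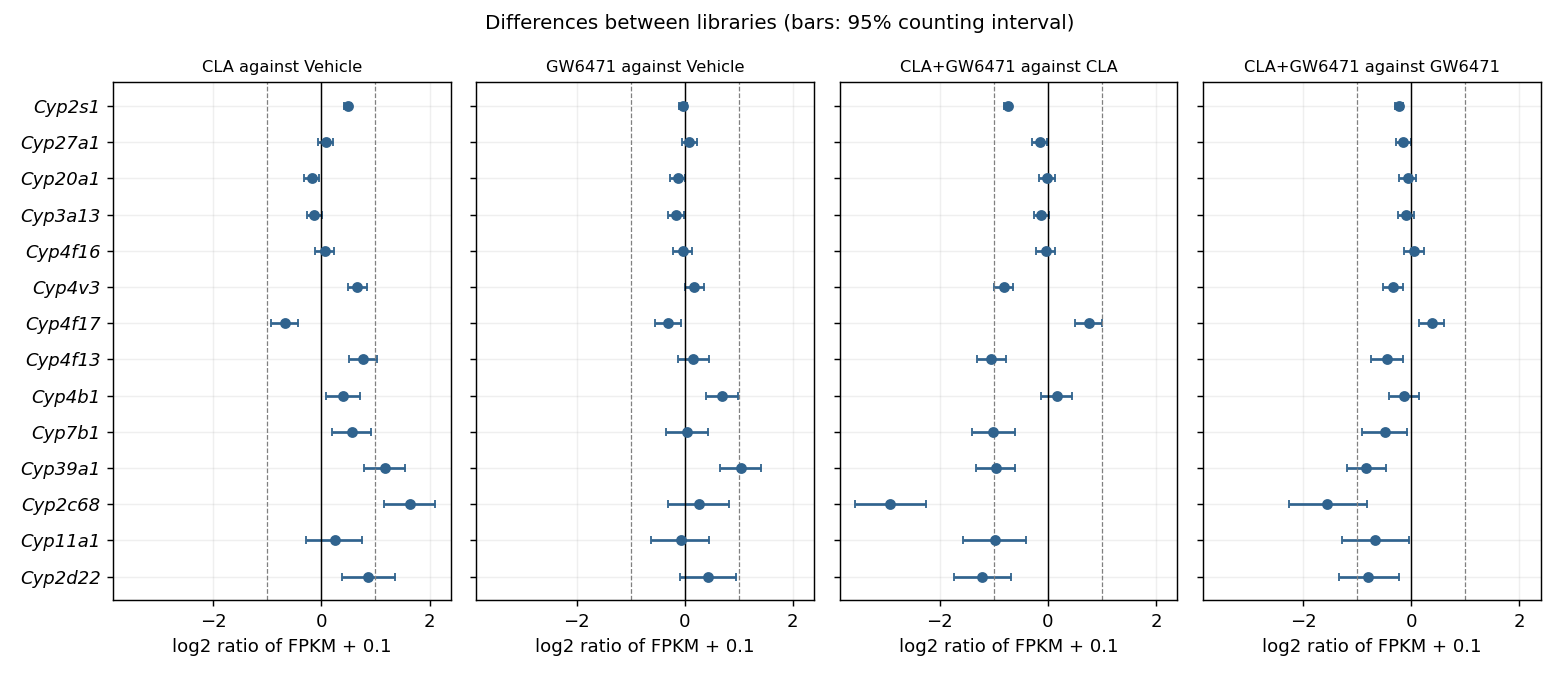
Log2 ratio of FPKM + 0.1 (horizontal) for the 14 P450 genes with a mean of at least 1 FPKM (vertical) in the 4 comparisons, with bars for the 95% counting interval and dashed lines at 2-fold. Of 14 points, 11 lie right of 0 for CLA over Vehicle and 12 lie left of 0 where the combination is set against either single treatment (48.9% of all genes above 0, then 49.0% and 49.3% below it), with Cyp2c68 farthest from 0 in all but GW6471 against Vehicle.

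Read library by library, CLA held the highest value in 9 of the 14 members, against 34.5% of all genes, and CLA+GW6471 held the lowest in 10, against 27.5%. Both held together in 7 members, against 18.2% of all genes, and these were Cyp2s1, Cyp4v3, Cyp4f13, Cyp7b1, Cyp2c68, Cyp11a1 and Cyp2d22. Without Cyp2d22, whose mean passes 1 FPKM through CLA alone, this was 6 of 13 members against 18.0% of genes chosen in that way. Cyp2d22 is also among the 9 members with CLA highest and the 10 with CLA+GW6471 lowest. Vehicle was highest for Cyp20a1 and Cyp3a13 (18.2% of all genes) and lowest for Cyp4b1 and Cyp39a1 (17.1%). Cyp4f17 had CLA lowest (34.4%) and the combination highest (28.0%), and GW6471 was highest for Cyp4b1 (18.9%) and lowest for Cyp4f16 (20.4%). The summed level of the listed hepatocyte markers also had CLA highest and CLA+GW6471 lowest, with 1070 FPKM in Vehicle, 1942 with CLA, 1583 with GW6471 and 993 with both, and within that list Alb had 680, 1322, 1067 and 620 FPKM. Alb carried most of that sum. Of the 7 hepatocyte markers with a mean of at least 1 FPKM, 4 had this order (Alb, Trf, Fgb and Apob), whereas Hnf4a was highest in Vehicle, Hpx lowest in GW6471 and Ass1 lowest in Vehicle. The fibroblast, intestine and adipocyte sums also had CLA highest and the combination lowest, but each is nearly 1 gene. These genes were Dcn (1287, 1506, 1350 and 1148 FPKM), Vil1 (42.2, 53.7, 44.3 and 37.9 FPKM) and Fabp4 (6.97, 7.76, 5.68 and 4.47 FPKM), and the other genes of these lists stayed under 1 FPKM in every library. The other lists with a gene above 1 FPKM had other orders. The epithelial sum was 1884, 1784, 1603 and 1713 FPKM, the macrophage sum 24.1, 36.6, 25.6 and 25.0 FPKM and the blood sum 1.93, 2.10, 1.87 and 1.99 FPKM. The part of these markers in the P450 values was not tested.

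The CLA diet was on opposite sides of the linoleic acid diet without and with GW6471, beyond the counting interval in both, for 8 of the 14 members and for 40.1% of all genes. Among the members that reach 1 FPKM without the CLA library, which leaves out Cyp2d22, it was 7 of 13, against 40.1% of genes chosen in that way. With the shortest transcript, which ends the call of Cyp4f13, it was 7 of 14 against 30.1% of all genes.

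Among the 14 members with a mean of at least 1 FPKM, one of family Cyp2 had the log2 ratio farthest from 0 in each comparison except GW6471 against Vehicle, where Cyp39a1 had it. Cyp2c68 belongs to the Cyp2c subfamily, whose enzymes oxidise drugs and form epoxides of arachidonic acid, and lies on chromosome 19 of mm9 from 39763324 to 39815544. It had 1.37 FPKM in Vehicle, 4.46 with CLA, 1.66 with GW6471 and 0.50 with both, or about 45, 145, 55 and 17 estimated reads. CLA was highest by a wide margin and CLA+GW6471 lowest. The log2 ratio was 1.63 (95% counting interval 1.16 to 2.11) in CLA against Vehicle and 0.26 (-0.30 to 0.82) in GW6471 against Vehicle. It was -2.93 (-3.57 to -2.26) in CLA+GW6471 against CLA and -1.55 (-2.26 to -0.82) in CLA+GW6471 against GW6471. With a pseudocount of 1 these were -1.86 and -0.83, and the ratio in CLA against Vehicle was 1.20. The value is uncertain as to its gene, because 43.3% of the 50-base windows of the transcript also occur in Cyp2c40, Cyp2c67 or Cyp2c69. Of these, Cyp2c67 had 0.06 FPKM in CLA and Cyp2c69 had 0.06 FPKM in GW6471, with 0 elsewhere, and Cyp2c40 was not analysed here. None of the 6 other listed Cyp2c genes exceeded 0.13 FPKM.

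Cyp2s1 differed by less in ratio than Cyp2c68 but with the narrowest intervals. Its log2 ratio was 0.49 (0.43 to 0.55) in CLA against Vehicle and -0.029 (-0.098 to 0.040) in GW6471 against Vehicle. For the combination the ratio was -0.75 (-0.82 to -0.68) against CLA and -0.23 (-0.30 to -0.16) against GW6471. Cyp2d22, a Cyp2d drug-metabolising gene on chromosome 15 (82200958 to 82210690), had 0.86 FPKM in Vehicle, 1.65 with CLA, 1.20 with GW6471 and 0.65 with both. CLA was highest and CLA+GW6471 lowest, with a log2 ratio of 0.87 (0.37 to 1.37) in CLA against Vehicle and of -1.22 (-1.75 to -0.69) in CLA+GW6471 against CLA. With GW6471 in both libraries the ratio was -0.79 (-1.33 to -0.22). In Cyp2d22, 6.14% of the 50-base windows occur in other Cyp2d genes or the gene model Gm5062. Cyp3a13, the Cyp3 member, had 15.63, 14.25, 13.97 and 13.09 FPKM in the order Vehicle, CLA, GW6471 and CLA+GW6471. Its libraries lay close together, and only GW6471 against Vehicle passed the counting interval, with a log2 ratio of -0.16 (-0.30 to -0.02).

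Family Cyp4, the fatty acid and eicosanoid hydroxylases, did not share 1 pattern. Of its 5 members with a mean of at least 1 FPKM, Cyp4v3, Cyp4f13 and Cyp4b1 were higher in CLA than in Vehicle beyond the interval, Cyp4f17 was lower and Cyp4f16 lay within it. Cyp4f17 and Cyp4f16 are neighbours on chromosome 17 of mm9, 7.66 kb apart, and Cyp4f13 lies a further 373 kb along. These genes are close copies, with 82.6% to 84.3% identity in their coding sequences. Cyp4f16 had 12.24 FPKM in Vehicle, 12.76 with CLA, 11.93 with GW6471 and 12.36 with both, and none of its 4 log2 ratios left the counting interval. Cyp4f17 had 10.34, 6.41, 8.33 and 10.86 FPKM in that order. CLA was its lowest library, with a log2 ratio of -0.68 (-0.94 to -0.43) against Vehicle, and CLA+GW6471 its highest, at 0.75 (0.50 to 1.0) against CLA. Among the 14 members with a mean of at least 1 FPKM, it alone had CLA lowest and CLA+GW6471 highest, and the low member Cyp27b1 had this order too. The listed values of Cyp2c55 also had it, but all lay at or under 3 reads, where no difference was detectable. Cyp4f13 showed the reverse order, with 5.92 FPKM in Vehicle, 10.15 with CLA, 6.63 with GW6471 and 4.85 with both. The log2 ratio of Cyp4f13 was 0.77 (0.51 to 1.02) in CLA against Vehicle and -1.05 (-1.32 to -0.78) in CLA+GW6471 against CLA. Reads can be shared among them, since 26.4% of the 50-base windows of Cyp4f16, 5.6% of those of Cyp4f17 and 2.70% of those of Cyp4f13 occur in another gene.

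Cyp4v3, the counterpart of the human gene mutated in Bietti crystalline dystrophy, hydroxylates medium-chain fatty acids. It had 8.40 FPKM in Vehicle, 13.39 with CLA, 9.53 with GW6471 and 7.55 with both. The CLA library lay above the other 3. The log2 ratio was 0.67 (0.50 to 0.83) in CLA against Vehicle, -0.82 (-0.99 to -0.65) in CLA+GW6471 against CLA and -0.33 (-0.52 to -0.15) in CLA+GW6471 against GW6471. Its transcript shares 9.10% of its windows with Klkb1, a gene on the same strand that overlaps it. Cyp4b1, known for activating lung toxins, had another order, at 3.95, 5.22, 6.43 and 5.85 FPKM in Vehicle, CLA, GW6471 and CLA+GW6471. Vehicle was the lowest library, with log2 ratios of 0.39 (0.08 to 0.71) in CLA and 0.69 (0.39 to 0.99) in GW6471 against Vehicle. Cyp4a32, next to Cyp4b1 on chromosome 4, had 0.03, 0.16, 0.23 and 0.05 FPKM and shares 46.8% of its windows with Cyp4a10 or Cyp4a31.

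Of the listed bile acid and sterol genes, Cyp27a1, Cyp7b1 and Cyp39a1 had a mean of at least 1 FPKM. Cyp27a1, the mitochondrial sterol hydroxylase that opens the alternative pathway and also oxidises the side chain in the classical one, had 22.87 FPKM in Vehicle, 24.27 with CLA, 24.27 with GW6471 and 21.85 with both. Its libraries were within 1.11-fold of each other, and the ratios to CLA and to GW6471 of the library with both treatments, each -0.15, lay just outside 0. Cyp7b1, the oxysterol hydroxylase, had 2.49, 3.72, 2.57 and 1.80 FPKM in the same order. CLA was highest, with a log2 ratio of 0.56 (0.19 to 0.92) against Vehicle, and CLA+GW6471 lowest, at -1.01 (-1.40 to -0.61) against CLA. Cyp39a1, which hydroxylates a brain-derived oxysterol, had 1.33 FPKM in Vehicle, 3.12 with CLA, 2.83 with GW6471 and 1.55 with both. Each single treatment stood above both the control and the combination. The log2 ratio of Cyp39a1 was 1.17 (0.79 to 1.54) in CLA against Vehicle and 1.03 (0.65 to 1.41) in GW6471 against Vehicle, and these share the Vehicle library. It was -0.96 (-1.33 to -0.61) in CLA+GW6471 against CLA and -0.83 (-1.20 to -0.47) against GW6471. The neuronal cholesterol hydroxylase Cyp46a1 had 0.21 FPKM in CLA and was listed at 0 elsewhere.

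Steroid hormone, vitamin D and retinoic acid genes were low. Cyp11a1, which cleaves the side chain of cholesterol in the first step of steroid hormone synthesis, had 1.63 FPKM in Vehicle, 1.95 with CLA, 1.55 with GW6471 and 0.94 with both. The library with both treatments was the lowest, with a log2 ratio of -0.98 (-1.58 to -0.40) against CLA and -0.67 (-1.28 to -0.05) against GW6471, and the single treatments lay within the interval of Vehicle. The listed markers of steroid-making cells summed to 0.73, 0.94, 0.89 and 0.74 FPKM. The 5 members between 0.1 and 1 FPKM were named after their values were seen, as Cyp2r1, Cyp27b1, Cyp2j6, Cyp21a1 and Cyp4a32. Cyp2r1 and Cyp27b1, which activate vitamin D, had 0.84 and 0.41 FPKM in Vehicle, 0.74 and 0.28 in CLA, 0.67 and 0.64 in GW6471, and 0.61 and 0.84 in CLA+GW6471. The steroid hydroxylase Cyp21a1 had 0.16, 0.72, 0.40 and 0.18 FPKM, with CLA highest. Cyp2j6, an epoxygenase, lay between 0.29 and 0.50 FPKM. Cyp24a1, Cyp17a1 and Cyp26b1 did not exceed 0.04 FPKM. Cyp20a1, an orphan with no settled substrate, was well expressed, at 19.16, 16.87, 17.49 and 16.67 FPKM. Its Vehicle library was the highest, and CLA against Vehicle had a log2 ratio of -0.18 (-0.33 to -0.04). Other genes hold 4.28% of its 50-base windows.

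P450 enzymes need electrons and heme. Of 7 redox partners, 6 were listed and all had a mean of at least 1 FPKM. All 6 were higher in CLA than in Vehicle beyond the counting interval (32.1% of all genes) and lower in CLA+GW6471 than in CLA (33.8% of all genes), and none differed 2-fold. Por, the reductase of the endoplasmic reticulum, had 72.40 FPKM in Vehicle, 98.38 with CLA, 87.99 with GW6471 and 80.87 with both. Its log2 ratio of CLA to Vehicle was 0.44 (0.38 to 0.50). Fdxr, which feeds mitochondrial P450 enzymes, had 4.39, 6.92, 6.66 and 5.07 FPKM in that order. In GW6471 against Vehicle 5 of the 6 were higher beyond the interval (27.6% of all genes), and in CLA+GW6471 against GW6471 5 were lower (30.3%).

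All 11 genes of heme synthesis and breakdown were listed at a mean of at least 1 FPKM. Those of breakdown are Hmox1, Blvra and Blvrb. In CLA against Vehicle 8 of the 11 were higher and 1 lower beyond the interval (32.1% and 33.5% of all genes). The 8 include Hmox1 and Blvrb, with log2 ratios of 0.44 and 0.66, whereas Blvra lay within the interval. In CLA+GW6471 against CLA 7 of the 11 were lower and 1 higher (33.8% and 35.0%). In GW6471 against Vehicle 6 were higher and 2 lower (27.6% and 27.4%), and in CLA+GW6471 against GW6471 7 were lower and 1 higher (30.3% and 29.0%). None differed 2-fold. Alas1, which sets the rate of heme synthesis in liver, had 13.45 FPKM in Vehicle, 17.92 with CLA, 14.54 with GW6471 and 15.14 with both. Fech, the last enzyme of the pathway, had 31.71, 54.53, 44.01 and 31.92 FPKM. Alad, an early enzyme of the pathway, had 70.16, 118.73, 92.28 and 63.00 FPKM, so for both of these CLA was the highest library. Uros went the other way, with 5.04 FPKM in Vehicle, 3.45 with CLA, 3.39 with GW6471 and 5.18 with both.

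**Figure D4:**
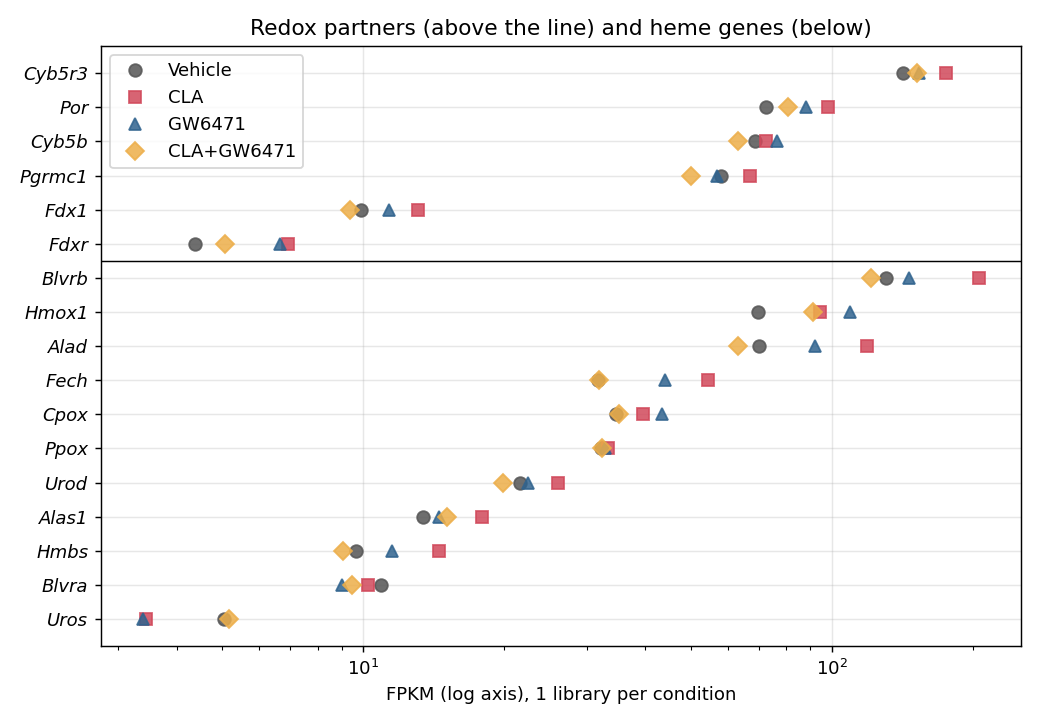
FPKM on a log axis (horizontal) of the 6 listed redox partners (above the line) and the 11 genes of heme synthesis and breakdown (below it), with 1 point for each library. CLA is rightmost for Por (98.38), Alad (118.73) and Fech (54.53), and leftmost points of Uros are CLA (3.45) and GW6471 (3.39).

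The receptors that control P450 genes in liver were split by level. Of 11 such genes, all were listed and 6 had a mean of at least 1 FPKM. Hnf4a, a hepatocyte factor that binds many P450 promoters, had 54.53 FPKM in Vehicle, 47.31 with CLA, 47.23 with GW6471 and 51.84 with both. The bile acid receptor Nr1h4 (FXR) had 9.39, 5.59, 6.44 and 10.65 FPKM. Its log2 ratio was -0.74 (-0.98 to -0.49) in CLA against Vehicle and 0.92 (0.68 to 1.16) in CLA+GW6471 against CLA. Both were lower in the single treatments than in Vehicle. Nr1i3 (CAR) lay between 0.79 and 0.87 FPKM. Nr1i2 (PXR) reached 0.06 FPKM and Ppara itself 0.15 FPKM at most. Against Vehicle, 2 of the 6 were higher and 3 lower beyond the interval with CLA (32.1% and 33.5% of all genes), and 0 and 3 with GW6471 (27.6% and 27.4%). For the combination, 3 were higher and 1 lower against CLA (35.0% and 33.8%), and 3 and 0 against GW6471 (29.0% and 30.3%). None differed 2-fold.

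The promoter windows of the RefSeq table (250 bases before to 50 after the start, GRCm38.p6) covered 31 of the 41 members with 33 windows, and 10 of the 14 expressed ones. They were searched on both strands for CACGTG, the E-box that CLOCK and BMAL1 bind, and for AGGTCA, the half-site bound by PPARα and REV-ERBα. CACGTG was found in 2 members, Cyp4v3 and Cyp2j6, and in 7.15% of all 32851 windows. AGGTCA was found in 4 members, Cyp11a1, Cyp2c29, Cyp2f2 and Cyp2t4, and in 16.3% of all windows. A match is a description of letters and not a binding site. The 250 bases upstream of the start are printed 5′ to 3′ for the most abundant member, Cyp2c68 and the expressed ones with a match, with matches in capitals.
Cyp2s1, GRCm38.p6 chr7:25816526-25816775, minus strand: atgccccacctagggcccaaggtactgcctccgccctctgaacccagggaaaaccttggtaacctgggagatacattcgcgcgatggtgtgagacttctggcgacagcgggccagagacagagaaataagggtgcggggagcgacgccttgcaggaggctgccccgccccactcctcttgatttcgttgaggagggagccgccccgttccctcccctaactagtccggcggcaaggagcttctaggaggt
Cyp2c68, GRCm38.p6 chr19:39741102-39741351, minus strand: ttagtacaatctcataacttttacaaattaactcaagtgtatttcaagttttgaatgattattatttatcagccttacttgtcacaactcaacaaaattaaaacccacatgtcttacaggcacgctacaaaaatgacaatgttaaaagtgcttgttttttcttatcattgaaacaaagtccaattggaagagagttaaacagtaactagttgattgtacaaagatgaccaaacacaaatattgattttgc
Cyp4v3, GRCm38.p6 chr8:45333164-45333413, minus strand: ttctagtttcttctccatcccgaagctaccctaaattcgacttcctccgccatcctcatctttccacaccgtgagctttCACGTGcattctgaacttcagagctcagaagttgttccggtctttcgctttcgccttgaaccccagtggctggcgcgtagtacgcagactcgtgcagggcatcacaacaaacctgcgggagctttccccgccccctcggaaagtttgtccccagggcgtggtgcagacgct
Cyp11a1, GRCm38.p6 chr9:58014702-58014951, plus strand: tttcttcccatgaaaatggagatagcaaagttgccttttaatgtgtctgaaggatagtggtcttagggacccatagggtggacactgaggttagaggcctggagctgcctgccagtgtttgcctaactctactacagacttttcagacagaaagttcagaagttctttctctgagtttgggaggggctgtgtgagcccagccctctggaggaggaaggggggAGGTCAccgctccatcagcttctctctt
In Cyp4v3 the E-box began 171 bases upstream of the start, and in the second of the 2 Cyp11a1 windows the half-site began 28 bases upstream. The windows of Cyp2s1 and Cyp2c68 held neither motif. Their base composition differed, with 63.0% G and C over the 300 bases in Cyp2s1 and 32.3% in Cyp2c68.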

How the data were processed

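Liver RNA was sequenced in 4 conditions, with 1 library each, grouped by the treatment in the labels. The authors mapped reads to mm9 with BWA and Bowtie, made FPKM with Cufflinks (no versions stated) and deposited FPKM with 2 decimals. The table names no unit and holds no counts. Ratios were taken after adding 0.1 to each FPKM, and an exact 0 can be a failed estimate. Calls were made at 2-fold for genes with a mean of at least 1 FPKM, and single libraries allowed no test.

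Depth was estimated from the steps between low values (0.02 to 0.5) of FPKM times length in kb. Of 544 genes under 1000 nt with 1 coding transcript, 138 to 147 a library had such a value. Reads of a gene came from its longest coding transcript in GENCODE vM1 (mm9). The 95% intervals (exact Clopper-Pearson) are approximate, since depth and length are estimates. The steps were tested on simulated libraries. Tools were Python 3.11.15 with scipy 1.17.1, numpy 2.4.6, pandas 2.3.3, biopython 1.88 and matplotlib 3.10.9.

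Members with a mean of at least 1 FPKM and a fixed set of liver P450 genes were named. Other members under 1 FPKM were named after their values were seen. Redox partners, heme genes, receptors and cell type markers were hand-written lists. The members and lists were chosen with earlier results of these data known. Sequences came from GENCODE vM1 transcripts and RefSeq promoters (GRCm38.p6), and coordinates of the builds were not combined. Alternatives were other pseudocounts, filters, scalings and transcript lengths.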

Additional observations from a re-analysis of the deposited data

Results flagged for a closer look

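For 8 of the 14 members with a mean of at least 1 FPKM, the CLA diet was on opposite sides of the linoleic acid diet without and with GW6471, beyond the counting interval in both. This held for 40.1% of all 9762 genes with a mean of at least 1 FPKM and a known length. Cyp2d22 reaches 1 FPKM through the CLA library alone, and without such genes the counts were 7 of 13 members and 40.1% of genes. With the shortest coding transcript the call of Cyp4f13 was lost, which left 7 of 14 members, or 6 of 13 without Cyp2d22, against 30.1% of genes either way. Each condition has 1 library, so this difference was not tested. The log2 ratio without GW6471 minus that with it was 3.19 for Cyp2c68, 2.0 for Cyp39a1, 1.66 for Cyp2d22, 1.21 for Cyp4f13, 1.05 for Cyp7b1, 1.0 for Cyp4v3 and 0.72 for Cyp2s1. For Cyp4f17 it was -1.06, with CLA below Vehicle and CLA+GW6471 above GW6471.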

How the results depend on the processing

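No paired analysis was possible because each condition has 1 library. Of 89 alternative counts and medians, 64 kept their sign and stayed within 1.5 times the reported value. The 64 include counts of 0 that stayed 0, where sign and ratio say nothing. Counts were also compared over unlike numbers of members (14, 41 or 9), so the tally does not measure how stable the results are. With a pseudocount of 1, members at least 2-fold higher numbered 1 with CLA and 0 with GW6471 against Vehicle (1.0% and 0.212% of all genes), and for the combination 1 was lower against CLA and 0 against GW6471 (1.71% and 0.299%). Without a filter on the mean, which lets all 41 members enter, 6 members were 2-fold higher with CLA and 3 with GW6471 against Vehicle (2.59% and 1.35% of all genes), and for the combination 1 was higher and 6 were lower against CLA (2.33% and 3.55%) and 3 were lower against GW6471 (1.51%). The medians were then 0.13 and 0 against Vehicle, and -0.14 and -0.12 for the combination. With a mean of at least 5 FPKM, which leaves 9 members, 0 were 2-fold higher with CLA or GW6471 against Vehicle (1.01% and 0.268% of all genes), and for the combination 1 was lower against CLA and 0 against GW6471 (1.72% and 0.354%). The medians were 0.085 and -0.029 against Vehicle, and -0.12 and -0.13 for the combination. At that limit 6 members lay beyond the counting interval with CLA against Vehicle (70.0% of genes), and 5 and 5 for the combination against CLA and against GW6471 (72.7% and 64.1%), and 3 had CLA highest and the combination lowest (18.0%). The group medians were thus nearer 0 over the more abundant members. With libraries scaled to the same FPKM sum, the median of GW6471 against Vehicle was 0.11. The factors were 1.032 for GW6471 and 1.002 for Vehicle, which raises each ratio of that comparison. For the combination against CLA, that scaling gave 3 members 2-fold lower instead of 4 (2.61% of genes), and a pseudocount of 0.01 gave 6 (2.93%). With the shortest coding transcript, members beyond the counting interval numbered 8 instead of 10 in CLA against Vehicle (51.7% of genes) and 9 instead of 10 in CLA+GW6471 against GW6471 (44.9%). Leaving the CLA library out of the filter gave 3 members 2-fold lower (2.42%) and 6 with CLA highest and the combination lowest (18.0%), of 13. Without a filter the count with CLA highest and the combination lowest was 7 of 41, and its share of all genes was not taken. Of 224 alternative ratios of single members, 3 had another sign with libraries scaled to the same FPKM sum, all of Cyp2s1 or Cyp4f16 and all within the counting interval. A pseudocount of 1 brought the log2 ratio of CLA+GW6471 to CLA from -2.93 to -1.86 for Cyp2c68 and from -1.22 to -0.68 for Cyp2d22. The alternatives for single members, for the filter without CLA and for the count with CLA highest and the combination lowest were chosen after seeing the data. Between 18800000 and 19270000 estimated reads a library leave members under 0.1 FPKM near the limit of detection.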
